A study of Mus musculus with 2 samples.

Results

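Arg1 Fn1 cells of the control cultures were examined. They were taken from the control library as cells with a single hashtag of culture day 3, 4, 5 or 7, with 500 or more detected genes and under 15% mitochondrial UMIs (unique molecular identifiers, each standing for 1 counted transcript). Among these, cells with 2 or more UMIs of Arg1, 2 or more of Fn1 and none of Ccr7 were selected, so that the cells were chosen by the measured levels of these 3 genes, which are given as a description. The rule held for 338 of 9961 control cells of these days that met the same limits, and for 338 of 31339 barcodes in the whole series.

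The cultures were grown from bone marrow of C57BL/6 mice aged 8 to 10 weeks, from which cells carrying lineage markers had been removed, with GM-CSF at 20 ng per ml. On day 3, albumin alone (control) or heme bound to albumin at 300 µM (heme) was added. Each group was 1 library on a droplet system that counts transcript 3′ ends, and each library pooled 5 cultures with the hashtags of days 0, 3, 4, 5 and 7. Both groups shared the strain, the growth factor and the albumin, and differed in the heme. Days 0 and 3 came before the addition.

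The control library held 198754588 gene UMIs in 13961 barcodes, and the heme library held 333481636 in 17378 barcodes. Between the libraries, 112 barcodes were shared, 1 of them an Arg1 Fn1 cell. With 1 library per group, no difference has a replicate check, no p-value is given, and every interval is at the 95% level and covers counting error only. All days of a library were processed together, so that free RNA of the pool could reach every cell.

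Arginase 1, the product of Arg1, splits arginine into ornithine and urea, and the ornithine feeds the synthesis of polyamines and proline. Macrophages raise Arg1 in wound repair, after exposure to type 2 cytokines and in tumours, and there arginase competes for arginine with the nitric oxide synthase encoded by Nos2. Fibronectin, the product of Fn1, is a matrix glycoprotein to which cells attach through integrins, and Slc7a2 encodes a membrane carrier that brings arginine into the cell. GM-CSF cultures of bone marrow are known to yield dendritic cells, macrophages and granulocytes side by side, and Ccr7 marks the mature dendritic cells.

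Nearly all of the cells came from day 7. The rule held for 1 of 2089 cells on day 3, 1 of 2263 on day 4 and 4 of 2601 on day 5, but for 332 of 3008 on day 7, a share of 11.0% (9.94% to 12.2%, exact binomial interval). Day 7 thus held 98.2% of them, and the earlier shares of 0.0479%, 0.0442% and 0.154% had upper bounds of 0.266%, 0.246% and 0.393%. Under the same rule the heme library held 2 of 3351 cells on day 3, 0 of 2999 on day 4, 2 of 2665 on day 5 and 0 of 2772 on day 7. The count of 0 on day 7 allows a share of up to 0.108% if 3 counts are taken as the limit, and its exact upper bound was 0.133%. The control and heme cells of day 7 carried medians of 12238 and 17404 UMIs, so the group without such cells was the more deeply counted one. Arg1 by itself was not absent from the heme cells of day 7, where 37 (1.33%) held 1 or more UMIs and 14 held 2 or more. Fn1 at 2 or more UMIs was held by 88 heme cells (3.17%) and 877 control cells (29.2%) of that day. The count of 0 in the heme library thus follows both genes of the rule.

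The day 7 level stood well above the background of the library. In cells of day 0, which should lack Arg1, 0.911% held 1 or more Arg1 UMIs at a median of 9920 UMIs per cell. In cells of days 3 to 5 with 50 or more UMIs of the neutrophil granule genes Camp, Ngp and Ltf, the share was 0.877% at a median of 9663 UMIs. Among all control cells of day 7 it was 16.7%, and 392 cells held 2 or more. Of these 392 cells, 345 (88.0%) also held 2 or more UMIs of Fn1, and 13 of the 345 were left out for holding Ccr7. The reverse did not hold to the same degree, since 39.3% of the 877 cells with 2 or more Fn1 UMIs had 2 or more of Arg1.

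**Figure D1:**
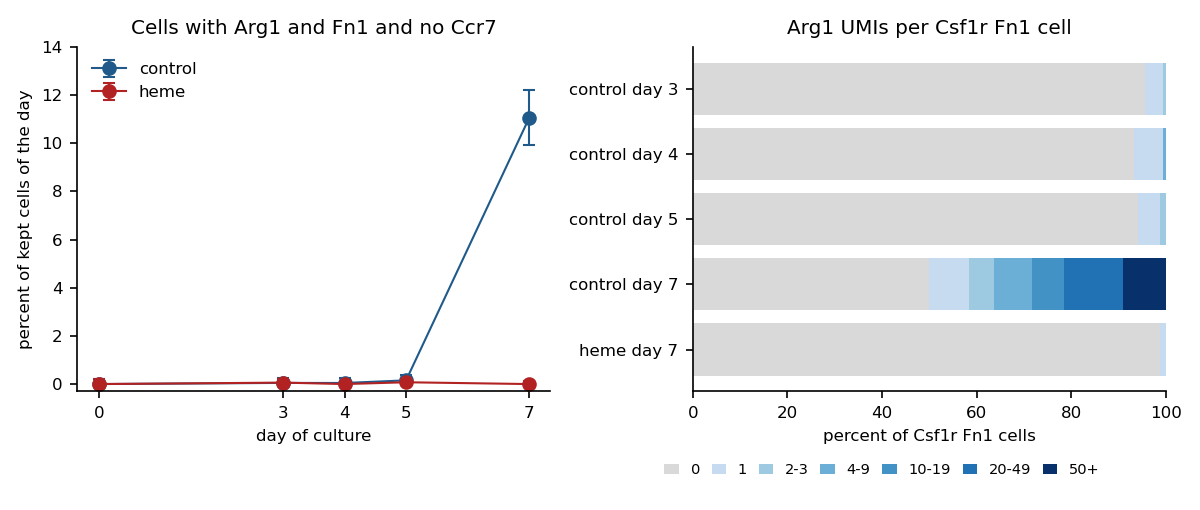
Left, the percent of kept cells (vertical axis) with 2 or more Arg1 UMIs, 2 or more Fn1 UMIs and no Ccr7 UMI by culture day (horizontal axis), with exact 95% binomial intervals, in the control and heme libraries. Right, the percent of Csf1r Fn1 cells in each class of Arg1 UMIs per cell. Control cells reach 11.0% on day 7 and every other point is under 1%, and 41.7% of the control Csf1r Fn1 cells of day 7 hold 2 or more Arg1 UMIs.

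Arg1 spread over a wide range within the 332 cells of day 7, from 2 to 209 UMIs with a median of 19. Fn1 ranged from 2 to 151 UMIs with a median of 25. By Arg1, 46 cells held 2 or 3 UMIs, 61 held 4 to 9, 61 held 10 to 19, 98 held 20 to 49 and 66 held 50 or more. The cells therefore formed no narrow class of Arg1 level, and most lay far from the limit of the rule. Their total ranged from 1878 to 72689 UMIs with a median of 14634, their detected genes from 879 to 7250 with a median of 3442.5, and their mitochondrial share from 0.740% to 13.3%.

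Cells near the limit were intermediate for Slc7a2, but not for every gene that the rule did not use. The 46 cells with 2 or 3 Arg1 UMIs summed to 199 CPM of Slc7a2 (CPM, UMIs of a gene after scaling the summed UMIs of the group to 1000000), 43.9 CPM of F13a1 and 1521 CPM of Ccl17. The 65 cells just outside, with 1 Arg1 UMI and 2 or more of Fn1, had 143 CPM of Slc7a2, 14.7 CPM of F13a1 and 2921 CPM of Ccl17. The 433 cells with the same Fn1 and no Arg1 had 84.3, 21.7 and 5013 CPM of these genes. Further inside, the 61 cells with 4 to 9 Arg1 UMIs had 210, 86.7 and 1944 CPM, and the 225 cells with 10 or more had 429, 204 and 1383 CPM. Slc7a2 thus stood higher in each class with more Arg1, whereas Ccl17 and F13a1 were ordered in the main but not throughout. The class II antigen presentation gene H2-Ab1 stood at 1212, 852, 705, 969 and 1052 CPM from no Arg1 to 10 or more UMIs. It was thus lowest in the class with 2 or 3 Arg1 UMIs. A further 46 cells held Arg1 but fewer than 2 UMIs of Fn1, and stood out with 3195 CPM of Spp1.

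The macrophage name was checked against marker genes. All 12 genes of the macrophage list were detected in the Arg1 Fn1 cells of day 7, from 12.0 CPM (Apoe) to 286 CPM (Gpnmb), with 267 CPM of Trem2, 238 CPM of Cd68 and 51.2 CPM of Adgre1, the gene of the F4/80 antigen. The summed level of the list was 1516 CPM, against 1511 CPM in the other Csf1r cells of day 7 and 375 CPM in cells with 2 or more Ccr7 UMIs. Of the dendritic cell list, 7 of 9 genes were under 10 CPM, with Flt3 at 0.174 CPM, Xcr1 at 1.04 CPM, Fscn1 at 1.57 CPM and Zbtb46 at 4.87 CPM, and the sum was 307 CPM, of which 239 CPM was Itgax. In the Ccr7 cells that sum was 3305 CPM, and in the other Csf1r cells, which also lacked Ccr7, it was 414 CPM. The rule kept out cells with Ccr7, which marks mature dendritic cells, so the low level of this list follows the rule in part. The lists of eosinophil, lymphoid and basophil or mast cell genes summed to 2.44, 1.39 and 9.75 CPM. The monocyte list summed to 1375 CPM, of which 709 CPM was Ccr2, against 811 CPM in the other Csf1r cells. The markers did not go against a macrophage, but the macrophage list did not set these cells apart from the other Csf1r cells either. The monocyte list stood higher in them, so they are called Arg1 Fn1 cells here.

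RNA of neutrophils was present in them at levels close to those of their neighbours. The neutrophil list summed to 2033 CPM in the Arg1 Fn1 cells, 2331 CPM in the other Csf1r cells and 4221 CPM in all other cells of day 7, and Cxcr2 and Ly6g were at 0.696 and 1.92 CPM. Of the Arg1 Fn1 cells, 134 (40.4%) held 3 or more UMIs of Camp, Ngp and Ltf together, against 34.9% of the other Csf1r cells. More than 5000 genes were detected in 40 cells (12.0%), against 4.19% of the other cells of day 7. Limits of 5000 genes and of a 30% ribosomal share together kept 292 of the 332 Arg1 Fn1 cells and 973 of the 1066 other Csf1r cells. They kept 293 of the 331 day 7 cells with 2 or more UMIs of Csf1r and of Fn1 but none of Arg1 or Ccr7. The part of free RNA or of barcodes with more than 1 cell in these values was not tested.

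The 5 marker genes fell into those that set the cells apart and those that did not. Arg1 (chr10:24915221-24927484, minus strand, GRCm38) summed to 1652 CPM in the Arg1 Fn1 cells and 33.3 CPM in the 2676 other control cells of day 7, and Fn1 (chr1:71585520-71653200, minus strand) to 1841 and 287 CPM, both by the rule. Slc7a2 (chr8:40862396-40922308, plus strand), which the rule did not use, summed to 358 and 39.9 CPM, a ratio of 8.97 (8.38 to 9.61). In single Arg1 Fn1 cells it ranged from 0 to 54 UMIs with a median of 4, and 89.5% of them held 1 or more, against 19.6% of the other cells of day 7 and 0.851% of the cells of day 0. Csf1r, the receptor for M-CSF, summed to 276 and 141 CPM, a ratio just under the 2-fold limit, and 315 of the 332 cells (94.9%) held it against 60.0% of the others. Spp1 (chr5:104435118-104441050, plus strand), which encodes the secreted protein osteopontin, summed to 794 and 781 CPM and did not set the cells apart.

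Because the Arg1 Fn1 cells of days 3, 4 and 5 numbered 6 in all, a comparison of their levels by day could not be made. In its place, chosen after the data had been seen, cells with 2 or more UMIs of Csf1r, 2 or more of Fn1 and no Ccr7, with any number of Arg1 UMIs, were followed (Csf1r Fn1 cells). They numbered 183, 148, 151 and 662 in the control library on days 3, 4, 5 and 7, and 419, 48, 96 and 76 in the heme library. Cells that met these limits were present from day 3, but other markers in them differed between the days. In the control library the granulocyte progenitor list (Elane, Mpo, Prtn3, Ctsg and Ms4a3) summed to 894, 113, 72.9 and 62.5 CPM on these days, the neutrophil list to 4948, 1992, 3372 and 1702 CPM and the macrophage list to 592, 649, 956 and 1571 CPM. In the heme library the neutrophil list summed to between 5820 and 7164 CPM. The part of these differences in the course given here was not tested. Arg1 was held by 8, 10, 9 and 331 of the control cells (1 or more UMIs) on these days, and by 1, 1, 2 and 276 of them at 2 or more UMIs, which is 41.7% (37.9% to 45.6%) on day 7. On day 7 of the heme library, 1 of 76 held a single Arg1 UMI, and 0 held 2 or more, which allows a share of up to 3.95% with 3 counts as the limit and has an exact upper bound of 4.74%. The medians of 33815 UMIs per heme cell and 16876 per control cell leave the heme cells the more deeply counted. Thinned to 5000 UMIs per cell, 40.8% of 655 control cells and 0 of 76 heme cells of day 7 held Arg1, with 7 and 0 shallower cells left out.

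Summed over the control Csf1r Fn1 cells, Arg1 stood at 2.24, 3.52, 2.97 and 663 CPM on days 3, 4, 5 and 7. Slc7a2 stood at 20.4, 24.9, 33.0 and 193 CPM, so that both genes were low until day 5 and high on day 7. In the heme library, Slc7a2 stood at 23.1, 49.2, 52.6 and 72.8 CPM. Spp1 followed another course, with 305, 954, 816 and 820 CPM in the control library and 310, 1659, 948 and 1533 CPM in the heme library. Fn1 and Csf1r chose these cells, so their levels are a description. Fn1 stood at 236, 279, 306 and 1343 CPM in the control library and at 215, 162, 161 and 207 CPM in the heme library, and Csf1r moved between 182 and 270 CPM in the control library. Ly6c2, a surface protein of inflammatory monocytes, was at 1140, 640, 485 and 259 CPM in the control library and at 1198, 947, 462 and 182 CPM in the heme library. Pf4, a platelet chemokine that macrophages also make, was higher in the heme library on each day, with 1452 against 632 CPM on day 7. On day 3, before the addition, it was already at 21.5 against 6.96 CPM, and Hmox1, heme oxygenase 1, at 177 against 61.6 CPM. The libraries thus differed in these 2 genes before heme was added, and the cause was not tested.

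**Figure D2:**
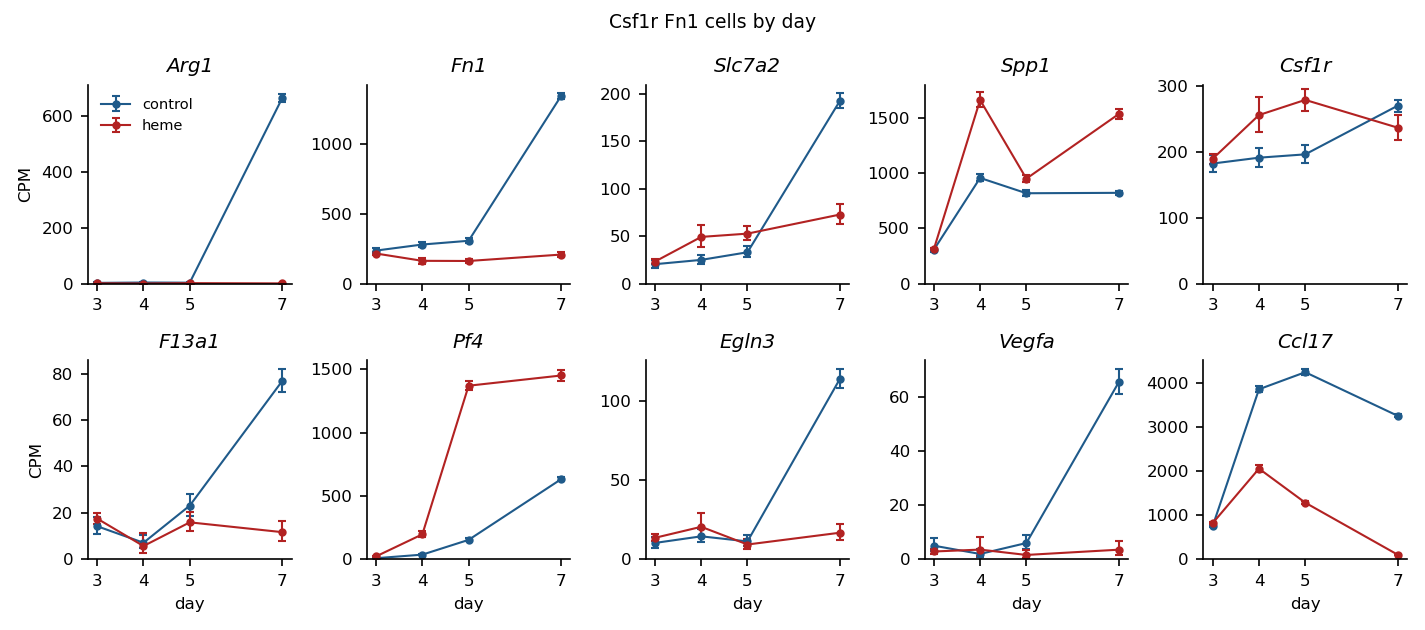
Levels of 10 genes (CPM, vertical axes) in Csf1r Fn1 cells by culture day (horizontal axes), control and heme libraries, with exact 95% Poisson intervals of the summed UMIs. Fn1 and Csf1r were used to choose the cells. Arg1, Fn1, Slc7a2, F13a1, Egln3 and Vegfa of the control library are highest on day 7, where Arg1 reaches 663 CPM, and Ccl17 of the heme library falls to 98.7 CPM on day 7.

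Between day 5 and day 7, 159 of 7465 genes tested (2.13%) were 2-fold or more higher in the control Csf1r Fn1 cells, Arg1 and Fn1 included, and 120 (1.61%) were 2-fold or more lower. A gene was tested in a comparison if both groups together held 20 or more UMIs and 20 or more CPM. The largest ratios, Arg1 and Fn1 set aside, belonged to Igf1, a growth factor (25.3 against 0.743 CPM), the MHC class I gene H2-M2 (23.5 CPM against a count of 0, at least 31.6-fold higher than the 3 counts over the group that a count of 0 allows) and Pltp, a phospholipid transfer protein (100 against 4.96 CPM). They were followed by Tnfrsf9, a receptor of the TNF family (216 against 19.3 CPM), Vegfa, a growth factor for blood vessels (65.6 against 5.95 CPM), and Egln3, an oxygen-dependent prolyl hydroxylase (114 against 11.2 CPM). Complement C1qa stood at 66.9 against 10.7 CPM. The transcription factor Id3 (0.962 against 59.0 CPM) and the chemokine Ccl22 (64.2 against 274 CPM) were lower. All 14 glycolysis genes tested were higher on day 7 (3 of them 2-fold or more, median log2 ratio 0.53), and all 16 cell cycle genes tested were lower (0 of them 2-fold or more, median -0.56), against a median of -0.09 over all genes tested. RNA of other cell types differed between these days as well. All 3 erythroid genes tested were 2-fold or more lower on day 7 (Hbb-bs at 54.0 against 130 CPM), as were 3 of 6 neutrophil genes tested (S100a8 at 557 against 1600 CPM), and its part in the other values was not tested. Of 12 genes of arginine use and polyamine synthesis, Slc7a2 was the 1 that was 2-fold or more higher, while Odc1 and Srm, enzymes of polyamine synthesis, stood at 73.8 against 212 CPM and at 49.2 against 117 CPM.

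Against all 2676 other control cells of day 7, 224 of 7385 genes tested (3.03%) were 2-fold or more higher in the Arg1 Fn1 cells and 184 (2.49%) were 2-fold or more lower. The highest ratios, Arg1 and Fn1 set aside, belonged to F13a1, coagulation factor XIII subunit A (160 against 14.1 CPM, ratio 11.4, 10.2 to 12.7), and Slc7a2. The next were B3galt2, a galactosyltransferase (27.5 against 3.75 CPM), the membrane protein gene Tmem119 (20.2 against 2.78 CPM), and the neutrophil-attracting chemokine Cxcl3 (447 against 65.0 CPM). Selenbp1 (71.9 against 11.7 CPM), Clmp (27.5 against 4.89 CPM), Errfi1 (34.5 against 6.23 CPM), Rnase2a (81.6 against 15.6 CPM) and Pf4 (832 against 160 CPM) completed the leading 10. The lower genes were led by the chemokine Ccl5 (11.5 against 1002 CPM), Fscn1, an actin-bundling protein of mature dendritic cells (1.57 against 100 CPM), and the transcription factor Stat4 (0.696 against 33.0 CPM), with Il4i1 (10.3 against 263 CPM) and Cd83 (3.65 against 71.3 CPM). The compared cells held 644 cells with 2 or more Ccr7 UMIs, which the rule kept out of the Arg1 Fn1 cells, so this lower side follows the rule in part.

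A closer comparison was therefore made with the 1066 other control cells of day 7 that held 2 or more Csf1r UMIs and no Ccr7, at a median of 14979 UMIs per cell. Of 7409 genes tested, 123 (1.66%) were 2-fold or more higher in the Arg1 Fn1 cells and 73 (0.985%) were 2-fold or more lower, and the median log2 ratio of all genes tested was -0.01. F13a1 (160 against 16.2 CPM, ratio 9.92, 8.69 to 11.4) and Slc7a2 (358 against 55.3 CPM, ratio 6.47, 5.99 to 6.99) again led. B3galt2, Tmem119, Selenbp1, Cxcl3, Errfi1 and Clmp were also among the leading 10 here, joined by Sdc4, a heparan sulfate proteoglycan (62.3 against 14.1 CPM), and C1rl, a complement C1r-like protease (25.1 against 6.40 CPM). The lower side was led by Trp53i11 (9.40 against 48.9 CPM), the surface protein gene Plet1 (143 against 687 CPM) and Mt3, a metallothionein (5.22 against 22.7 CPM). It also held the membrane protein genes Tmem176b (14.8 against 60.5 CPM) and Tmem176a (15.1 against 56.4 CPM), the chemokine Ccl17 (1499 against 6005 CPM, interval of the ratio 0.244 to 0.255), Cstdc5 (8.01 against 30.1 CPM) and Siglecf (5.05 against 18.6 CPM). When 2 or more Csf1r UMIs were also required of the Arg1 Fn1 cells, which left 276, the log2 ratio of Slc7a2 was 2.61 and that of Ccl17 was -1.94.

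**Figure D3:**
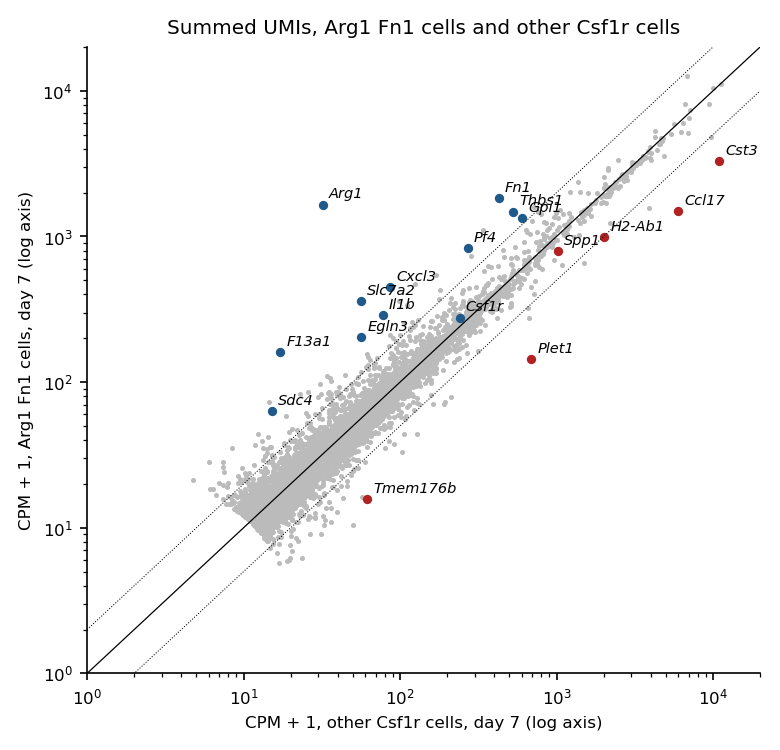
CPM + 1 of each gene tested in the Arg1 Fn1 cells of day 7 (vertical log axis) and in the other Csf1r control cells of day 7 (horizontal log axis). Solid line, equal levels. Dotted lines, 2-fold. Named genes are blue where higher in the Arg1 Fn1 cells and red where lower. F13a1, Slc7a2 and Cxcl3 lie above the upper dotted line, Ccl17, Cst3, Plet1 and Tmem176b lie below the lower one, and Csf1r and Spp1 lie between the lines.

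Genes of arginine use were not raised as a group. Of 11 tested against the other Csf1r cells, Slc7a2 alone was 2-fold or more higher, and the median log2 ratio of the list was -0.04. Ass1, which remakes citrulline into an arginine precursor, was at 481 against 363 CPM, Odc1 at 61.6 against 100.0 CPM, and Slc7a1, a second arginine carrier, at 22.4 against 25.3 CPM. Nos2 was below the level for testing at 9.05 against 1.01 CPM, and Arg2, the mitochondrial arginase, was at 5.22 against 4.38 CPM.

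Matrix genes showed a few large differences. Of 14 tested, 3 were 2-fold or more higher and 1 was lower. Thbs1, thrombospondin 1, stood at 1480 against 526 CPM (ratio 2.82, 2.73 to 2.90), Tgm2, a transglutaminase that crosslinks matrix proteins, at 96.4 against 29.6 CPM, and Tgfbi, a matrix protein induced by TGF-beta, at 372 against 175 CPM. The lower one was Mfge8, a bridge between phagocytes and dying cells, at 69.6 against 161 CPM. Integrin genes differed less, with Itgb5 at 36.4 against 21.1 CPM, Itgam at 443 against 344 CPM and Itgav at 15.0 against 21.9 CPM. Of 8 matrix proteases and their inhibitors tested, Mmp14, a membrane-bound matrix protease, was 2-fold or more higher (111 against 43.7 CPM), and Mmp12, the macrophage elastase, was at 3342 against 2488 CPM.

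Glycolysis genes stood higher almost throughout. Of 14 tested, 13 had a ratio above 1, with a median log2 ratio of 0.59, and 1 was past 2-fold, namely Gpi1, glucose-6-phosphate isomerase (1330 against 605 CPM, ratio 2.20, 2.13 to 2.26). Pgk1, phosphoglycerate kinase (1476 against 766 CPM), and Slc2a1, the glucose carrier GLUT1 (133 against 68.4 CPM), came close to it. Pfkp, a phosphofructokinase, was the exception at 202 against 217 CPM. Over all genes tested, 3567 of 7409 had a ratio above 1. Genes outside this list that moved in the same way were chosen after their values had been seen: Egln3 stood at 202 against 55.2 CPM, Ero1l, an oxidase of the endoplasmic reticulum, at 543 against 169 CPM, Bnip3, a mitochondrial protein of mitophagy, at 337 against 109 CPM, Fam162a at 730 against 283 CPM and Hilpda, a lipid droplet protein, at 57.3 against 17.6 CPM.

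Of the chemokine and cytokine list, which does not hold Ccl17, 4 of 15 genes tested were 2-fold or more higher than in the other Csf1r cells and 0 were 2-fold or more lower. The higher ones were Cxcl3, Cxcl2 (471 against 123 CPM), the inflammatory cytokine Il1b (289 against 76.4 CPM) and Vegfa (105 against 34.8 CPM). Il1rn, the antagonist of the interleukin 1 receptor, was at 263 against 156 CPM, Ccl2 at 355 against 424 CPM and Tnf at 32.0 against 50.4 CPM. Il10 had no UMI in the Arg1 Fn1 cells, which allows up to 0.522 CPM.

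Genes often used to mark alternatively activated macrophages were not raised as a group against the other Csf1r cells. Of 10 tested, 0 were 2-fold or more higher and 1 was 2-fold or more lower (Ccl17), with a median log2 ratio of -0.41. Chil3, a chitinase-like protein, stood at 244 against 350 CPM, Mgl2, a galactose lectin, at 634 against 1083 CPM, and Mrc1, the mannose receptor, at 95.7 against 83.9 CPM. Chil3 was not lower in every comparison, since among control Csf1r Fn1 cells of day 7 it stood at 237 CPM with 2 or more Arg1 UMIs and at 161 CPM with none. Retnla, another common marker, had no UMI in the Arg1 Fn1 cells and 9.99 CPM in the other Csf1r cells.

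Class II antigen presentation genes were lower as a group. All 7 tested had a ratio under 1, 4 of them past 2-fold, with a median log2 ratio of -1.004. H2-Ab1 stood at 987 against 2010 CPM, Cd74, the invariant chain, at 4842 against 9712 CPM, and Ciita, the activator of these genes, at 38.3 against 84.1 CPM. With 2 or more Csf1r UMIs required of both groups, H2-Ab1 and Cd74 fell just short of 2-fold (log2 ratios of -0.997 and -0.971). Cst3, the protease inhibitor cystatin C, stood at 3287 against 10880 CPM.

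Monocyte markers were mostly higher. Of 6 tested, 5 had a ratio above 1 and 3 were past 2-fold, with a median log2 ratio of 1.08. F13a1, Ly6c2 (428 against 178 CPM) and Cx3cr1 (15.7 against 5.67 CPM) were 2-fold or more higher in the Arg1 Fn1 cells, Ccr2, the receptor for Ccl2, was at 709 against 560 CPM and Vcan, a matrix proteoglycan, at 47.2 against 25.2 CPM, and Plac8 was lower at 15.5 against 25.9 CPM. Of the macrophage list, 6 of 12 genes had a ratio above 1 and 0 were past 2-fold. Lysosome genes were slightly higher (12 of 13 above 1, median log2 ratio 0.23), with the bone-resorbing protease Ctsk past 2-fold (19.1 against 5.95 CPM). Of 13 lipid genes, 2 were past 2-fold, Fabp5, a fatty acid binding protein (1588 against 717 CPM), and Abca1, a cholesterol exporter (59.7 against 27.8 CPM). Hmox1, heme oxygenase 1, was at 210 against 85.4 CPM and Tfrc, the transferrin receptor, at 22.1 against 47.3 CPM. Cell cycle genes did not differ as a group (7 of 16 above 1, 0 past 2-fold, median log2 ratio -0.04), with Mki67 at 89.5 against 87.5 CPM.

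**Figure D4:**
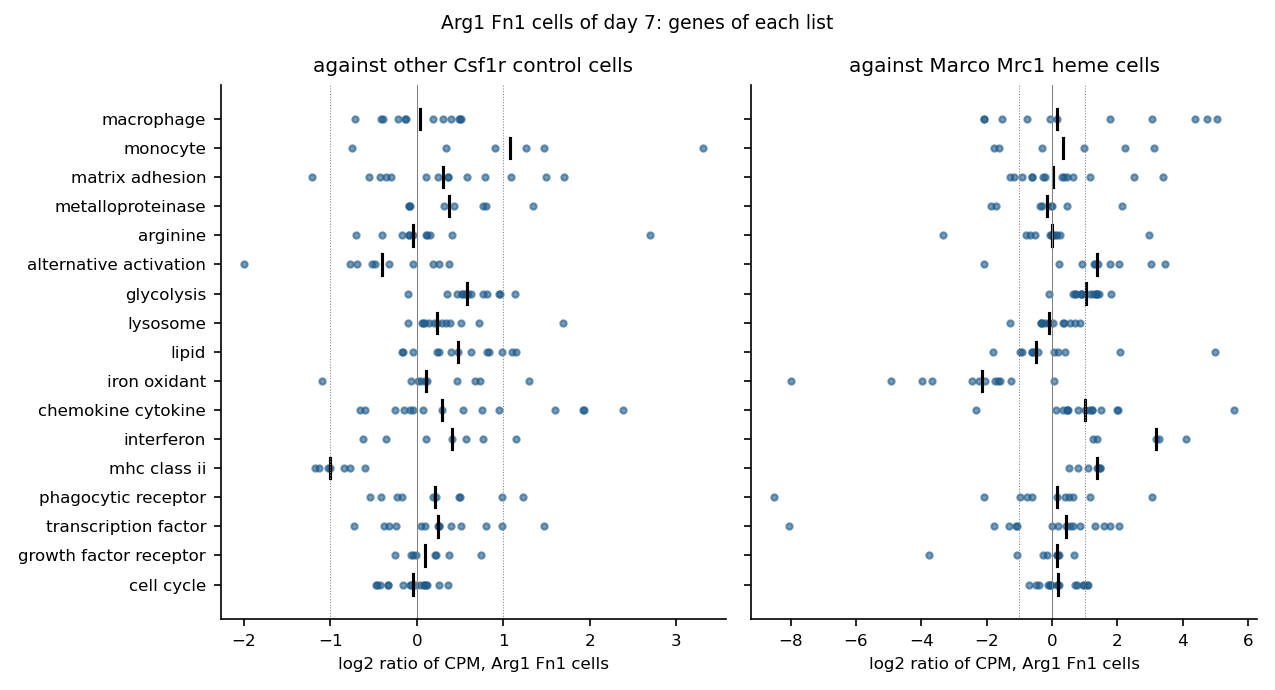
Log2 ratio of CPM (horizontal axes) of each gene tested in 17 gene lists (rows), Arg1 Fn1 cells of day 7 against the other Csf1r control cells (left) and against the Marco Mrc1 cells of the heme library (right). Points are genes, without Arg1 and Fn1, black bars are medians, dotted lines mark 2-fold. Class II genes lie left of 0 on the left and right of 0 on the right, and glycolysis genes lie mostly right of 0 in both.

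The rule used Fn1 as well as Arg1, so a comparison with the same minimum of Fn1 in both groups was added after the data had been seen. Among control Csf1r Fn1 cells of day 7, the 276 with 2 or more Arg1 UMIs were set against the 331 with none, at medians of 15435 and 17664 UMIs. Fn1 was not made equal by this, and stood at 1810 against 975 CPM. Of 7441 genes tested, 85 (1.14%) were 2-fold or more higher, Arg1 included, and 27 (0.363%) were 2-fold or more lower. F13a1 (155 against 23.8 CPM), Selenbp1 (68.4 against 10.9 CPM) and Tmem119 (18.95 against 3.36 CPM) led, followed by Car4, a carbonic anhydrase (219 against 47.5 CPM), and Cxcl2 (474 against 105 CPM). Slc7a2 was at 337 against 82.6 CPM and Ly6c2 at 427 against 136 CPM. Plet1 (155 against 702 CPM), Siglecf (5.28 against 21.4 CPM) and Ccl17 (1562 against 4657 CPM) were lower. Mmp12 (3301 against 3669 CPM), Ccr2 (698 against 834 CPM) and Mrc1 (91.4 against 142 CPM) were lower too, unlike against the other Csf1r cells. Of the 6 monocyte markers, 5 had a ratio above 1. Of the class II genes, all 7 had a ratio under 1 but 0 were past 2-fold, with a median log2 ratio of -0.35. Of the glycolysis genes, 13 of 14 had a ratio above 1 and 0 were past 2-fold, with a median of 0.44.

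Hemoglobin RNA also stood higher in this comparison, with Hbb-bs at 97.7 against 23.2 CPM, and all 3 erythroid genes tested past 2-fold. Of the Hbb-bs UMIs in thinned Arg1 Fn1 cells, 77.9% lay in 1 cell. Against the other Csf1r cells Hbb-bs was at 89.8 against 87.2 CPM.

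The Arg1 Fn1 cells were then compared with scavenger receptor macrophages of the heme library, since the same rule found no cell there on day 7. Cells of the heme library with 2 or more UMIs of Marco, 2 or more of Mrc1 and no Ccr7 numbered 1038 on day 7, at a median of 20866 UMIs. Marco and Mrc1 encode scavenger and lectin receptors and chose these cells, so their ratios are a description. Of 7717 genes tested, 307 (3.98%) were 2-fold or more higher in the Arg1 Fn1 cells and 689 (8.93%) were 2-fold or more lower, with a median log2 ratio of -0.25 over all genes tested. With TMM scaling, which centres this median near 0 (0.02), the counts became 495 and 393, so the excess of lower genes was not stable to the scaling. Leaving out cells with 3 or more UMIs of Camp, Ngp and Ltf together kept 74 of the 1038 Marco Mrc1 cells and 198 of the 332 Arg1 Fn1 cells. Library and heme cannot be told apart in this comparison.

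Iron and oxidant response genes were far lower in the Arg1 Fn1 cells. Of 12 tested, 11 were 2-fold or more lower, with a median log2 ratio of -2.15. Hmox1 stood at 210 against 6361 CPM (ratio 0.0329, 0.0311 to 0.0349), Slc40a1, the iron exporter, at 2.09 against 528 CPM, Gclm, a subunit of the enzyme of glutathione synthesis, at 103 against 1606 CPM, and Fth1, ferritin heavy chain, at 27342 against 65139 CPM. Tfrc was the exception, at 22.1 against 21.02 CPM. Slc40a1 passed the minimum through the heme cells alone, so the count of lower genes depends in part on the genes tested. Against the other Csf1r cells, 10 genes of this list were tested. Spic, a transcription factor of red pulp macrophages, had no UMI in the Arg1 Fn1 cells and 139 CPM in the heme cells.

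Other lists were higher in the Arg1 Fn1 cells. All 7 class II genes had a ratio above 1, 5 of them past 2-fold, with a median log2 ratio of 1.38, so that these cells lay between the other Csf1r control cells and the Marco Mrc1 heme cells. H2-Ab1 was at 2010, 987 and 378 CPM in these 3 groups, in that order, and Ccl17 at 6005, 1499 and 136 CPM. Of 14 glycolysis genes, 7 were past 2-fold (median 1.04), and of 15 chemokines and cytokines in that list 8 were past 2-fold higher and 1, Tnf, lower (32.0 against 161 CPM). Vegfa, among these 8, passed the minimum through the Arg1 Fn1 cells alone, so this count too depends in part on the genes tested. Of 13 interferon-induced genes, 5 were tested. Isg15 (50.6 against 5.22 CPM), Oasl2 (34.6 against 1.99 CPM) and Irf7 (20.2 against 2.20 CPM) passed the minimum through the Arg1 Fn1 cells alone, so no count is read from this list. Bst2 was at 220 against 84.7 CPM, while Ifit2, below the level for testing, was at 3.48 against 3.44 CPM. The complement genes C1qa (67.2 against 3.19 CPM) and C1qb (209 against 6.22 CPM), the Fc receptor gene Fcgr1 (67.2 against 7.96 CPM), Vegfa (105 against 2.20 CPM) and Abca1 (59.7 against 1.87 CPM) were higher too. The other Csf1r control cells held C1qa at 73.2, C1qb at 273 and Fcgr1 at 89.8 CPM. These genes were thus not particular to the Arg1 Fn1 cells, unlike Vegfa and Abca1, given above. Slc7a2 was at 358 CPM in the Arg1 Fn1 cells against 45.9 CPM in the Marco Mrc1 heme cells. Arg2 ran against Arg1, at 5.22 against 52.4 CPM. Mmp12 was at 3342 against 3362 CPM and Csf1r at 276 against 243 CPM. Of 10 alternative activation genes tested, 9 had a ratio above 1 and 7 were 2-fold or more higher (median log2 ratio 1.37). Some of them, such as Irf4 (70.0 against 16.9 CPM), passed the minimum through the Arg1 Fn1 cells alone. Mrc1, which chose the heme cells, was lower.

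The Arg1 Fn1 cells of day 7 were not uniform. For a view free of depth, each cell was thinned to 5000 UMIs, which kept 326 cells and left out 6. The highest ratios of variance to mean were seen for S100a8 (182), S100a9 (116) and Hbb-bs (104), which followed a handful of cells, since 49.4% of the thinned S100a8 UMIs lay in 10 cells. Next came Fth1 (49.7, from 12 to 494 UMIs per cell), Ngp (35.8) and Ccl17 (32.4, found in 41.4% of cells and reaching 86 UMIs). Cstdc4 (32.2), Cst3 (28.8), Ccl4 (20.3), Wfdc17 (20.2), Ifitm1 (19.02), Lyz2 (18.8), Cd74 (18.3), Mmp12 (17.0) and Cxcl3 (15.7) completed the leading 15. Arg1 itself had a ratio of 13.3, with a median of 6 and a highest value of 68 thinned UMIs. Csf1r, by contrast, had 1.15, close to the value of 1 that counting alone gives, and was found in 75.2% of thinned cells.

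Groups of genes varied apart from each other over these 326 cells. Rank correlations (Spearman's rho) are given as a description over cells of 1 library at equal depth. Among 1351 genes with a mean of 0.5 or more thinned UMIs, together with the named genes, Arg1 was most like Fam162a (0.49), Ero1l (0.45), Pgk1 (0.41), F13a1 (0.41), Slc7a2 (0.41), Anxa2 (0.40), Gpi1 (0.40), Fau (0.37), Thbs1 (0.37) and Prdx5 (0.36), while the median over all was -0.01. It ran against mt-Atp6 (-0.37), Sec61b (-0.34) and Ccl17 (-0.33). Other mitochondrial transcripts were also among the most opposed, namely mt-Co3 (-0.32), mt-Cytb (-0.32), mt-Nd4 (-0.30) and mt-Nd3 (-0.29). The second group was that of class II genes, where H2-Ab1 was most like H2-Aa (0.82), H2-Eb1 (0.80), Cd74 (0.79) and Ccl17 (0.42) and had no relation to Arg1 (0.0031). The third held Mmp12 with Lgals3 (0.44), Wfdc17 (0.41) and Cd36 (0.41), and ran against Ly6c2 (-0.42), which in turn went with Thbs1 (0.36) and Hp (0.33). After Ly6c2, the ribosomal protein genes Rpl32 (-0.37) and Rpl21 (-0.37) were most opposed to Mmp12. The part of mitochondrial and ribosomal share in these values was not tested. The fourth was the cell cycle, with Mki67 most like Birc5 (0.58), Pclaf (0.58) and Top2a (0.57). Mki67 was found in 19.6% and Top2a in 29.4% of the thinned cells, and Top2a stood at -0.23 to Arg1.

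**Figure D5:**
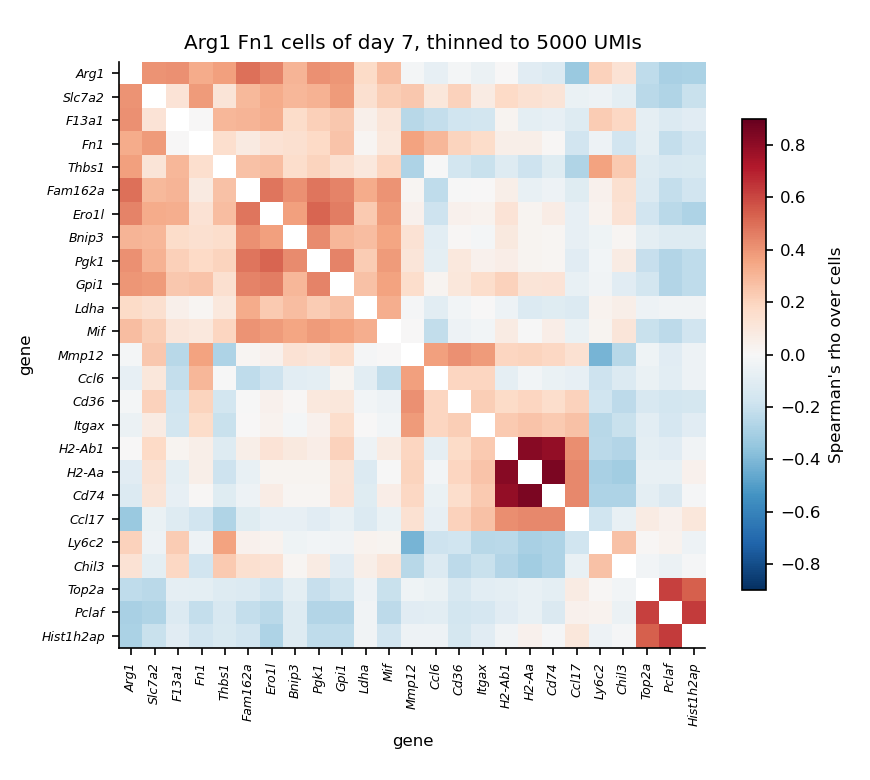
Spearman's rho between the thinned UMIs of 25 genes over 326 Arg1 Fn1 cells of day 7 (rows and columns are genes, colour is rho from -0.9 to 0.9, the diagonal is left blank). Arg1, Slc7a2, Fam162a, Ero1l, Pgk1 and Gpi1 form a block of positive values, class II genes and Ccl17 form another, and Top2a, Pclaf and Hist1h2ap form the last.

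Since the genes most like Arg1 varied together, the promoters of some are shown, as 250 bases before to 50 after the start (RefSeq, GRCm38.p6, 5′ to 3′ on the strand of the gene). Of the 12 genes most like Arg1, 8 had a promoter in the table used. The genes Ero1l, Slc7a2, Thbs1 and Fn1 of the 12 were not in it, and neither was Arg1 itself. The letters ACGTG and GCGTG, read on either strand, are in capitals, and these belong to the letters that several basic helix-loop-helix factors bind. Fam162a, Pgk1 and Gpi1 are shown as leading genes of the Arg1 group, and Egln3 for its day 7 level.
Fam162a, chr16:36071512-36071811, minus strand: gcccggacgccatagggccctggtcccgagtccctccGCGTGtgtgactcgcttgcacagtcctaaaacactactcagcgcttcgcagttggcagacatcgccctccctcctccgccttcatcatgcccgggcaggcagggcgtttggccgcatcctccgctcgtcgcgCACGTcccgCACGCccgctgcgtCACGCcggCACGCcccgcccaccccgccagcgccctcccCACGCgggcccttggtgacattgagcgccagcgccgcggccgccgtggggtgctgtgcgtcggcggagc
Pgk1, chrX:106186850-106187149, plus strand: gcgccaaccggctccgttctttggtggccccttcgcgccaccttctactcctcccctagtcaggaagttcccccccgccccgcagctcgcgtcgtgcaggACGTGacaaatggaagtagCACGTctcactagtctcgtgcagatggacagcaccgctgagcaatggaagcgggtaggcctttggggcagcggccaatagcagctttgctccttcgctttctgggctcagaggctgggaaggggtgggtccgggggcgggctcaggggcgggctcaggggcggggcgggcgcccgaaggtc
Gpi1, chr7:34230287-34230586, minus strand: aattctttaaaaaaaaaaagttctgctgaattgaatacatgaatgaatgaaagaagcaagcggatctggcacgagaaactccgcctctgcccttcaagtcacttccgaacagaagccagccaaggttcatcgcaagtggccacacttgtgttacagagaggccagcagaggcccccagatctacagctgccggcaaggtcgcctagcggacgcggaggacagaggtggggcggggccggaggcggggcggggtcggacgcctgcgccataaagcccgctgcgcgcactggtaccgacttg
Egln3, chr12:54203825-54204124, minus strand: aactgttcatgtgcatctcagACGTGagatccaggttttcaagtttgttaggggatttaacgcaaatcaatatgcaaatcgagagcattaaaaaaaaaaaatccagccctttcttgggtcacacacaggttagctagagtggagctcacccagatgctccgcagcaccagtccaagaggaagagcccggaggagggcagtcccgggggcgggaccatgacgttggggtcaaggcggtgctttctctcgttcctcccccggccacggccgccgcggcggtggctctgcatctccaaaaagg
Fam162a held 6 matches, Pgk1 2, Egln3 1 and Gpi1 0. Of the 8 genes, 6 held a match, against 43.8% of the 32851 promoters of the same length in the table. The 8 were counted by gene and the background by promoter, with 27025 gene symbols among the 32851, so the units differ. The 8 were also picked by these same data, and enrichment was not tested. F13a1, listed with 2 starts, held 0 at both. The letters TGANTCA, searched in the same way, were found for 1 of the 8 genes, Anxa2, and in 7.81% of all promoters. A match is a run of letters and not a bound site.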

How the data were processed

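The authors made the deposited matrices, raw UMI counts per gene and barcode, with Cell Ranger (4.0.0 in the methods, 5.0.0 in the matrix headers) after removal of empty droplets, and sorted barcodes by hashtag with HTODemux of Seurat 3.2.3. Per the submitters' processing notes the build was GRCm38.p6. Of 26124 gene identifiers, 26090 were found in GENCODE M21. From these counts, cells were chosen as described, and doublets were treated through the hashtag calls, so that doublets of 1 day remain.

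UMIs were summed over the cells of a group and scaled to CPM. Ratios carry exact intervals for 2 Poisson counts, and shares exact (Clopper-Pearson) intervals. Cells were thinned to 5000 UMIs without replacement (seed 11). A call is a 2-fold difference among genes tested, without a test across cultures, since each group was 1 library. Replicate fits, limma and a block were therefore not used. The count comparison was checked on simulated Poisson counts with known changes. These hold no variation between cells, so the check does not cover that spread. Scaling factors (TMM, RLE) came from edgeR 4.0.16, the rest from Python 3.11.15, numpy 2.4.6, scipy 1.17.1 and pandas 2.3.3.

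The cells and the gene lists were chosen with earlier results of these data known. Named genes were the 5 markers, for each list the members with the highest levels and those past 2-fold, the 10 largest ratios in each direction of a comparison (without Arg1, Fn1, Ccr7 and unnamed gene models) and the 15 with the highest variance to mean, of which a part is printed. Genes chosen after their values were seen are marked as such. Exposure times in the series description (24, 72 and 96 h) and harvest days in the labels (4, 5 and 7) do not match for day 5, and the hashtag days were used.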

Additional observations from a re-analysis of the deposited data

Results flagged for a closer look

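Barcodes that carried more than 1 hashtag entered no comparison. Under the same limits, 1244 such control barcodes were found, and 71 of them met the rule for Arg1 Fn1 cells. Among the 591 with the hashtag of day 7, 67 (11.3%, 8.89% to 14.2%) met it, close to the 11.0% of single-hashtag cells of day 7, against 4 of the 653 without that hashtag. Of the 402 barcodes without a hashtag, 0 met it. Among these barcodes, those that met the rule thus mostly carried the day 7 hashtag. A barcode with that hashtag and another can hold a cell of the same day 7 culture, in the same library. The rule used the same genes, so a share close to that of the single-hashtag cells can arise from this alone. It is therefore given as a description and is no independent check.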

How the results depend on the processing

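The share of Arg1 Fn1 cells on day 7 was 13.9% with 1 or more UMIs of each gene, 8.98% with 4 or more, 9.23% after thinning to 5000 UMIs and 9.34% without cells holding granule RNA. On days 3, 4 and 5 it was 0.574%, 0.530% and 0.692% with 1 or more UMIs, 0% on day 3 and 0.0384% on day 5 with 4 or more, and 0% on days 3 and 4 after thinning. Day 7 remained the highest in each case.

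Counts of genes past 2-fold moved mainly with the minimum. Without one, higher and lower genes numbered 1333 and 967 against the other control cells, 619 and 609 against the other Csf1r cells, 512 and 439 with against without Arg1, 759 and 655 for day 7 against day 5, and 1231 and 1854 against the Marco Mrc1 heme cells. With a minimum of 100 UMIs in place of both the 20 UMIs and the 20 CPM, which drops the limit on CPM, lower genes numbered 467, 155 and 1127 against the other control, other Csf1r and Marco Mrc1 cells. TMM scaling gave 495 higher and 393 lower genes against the Marco Mrc1 cells, and RLE scaling 504 and 381. Lower genes with against without Arg1 numbered 57 under the limits of the study and 43 with the mean of CPM per cell. The cause was not tested.

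Of 564 list medians under other settings, 4 of those that were 0.2 or more from 0 changed sign: erythroid, with granule RNA cells left out (-1.12 against other control cells, -0.39 against Marco Mrc1 cells), neutrophil, with the mean per cell against other Csf1r cells (0.061), and monocyte, with 100 UMIs for day 7 against day 5 (0.18). Of 769 values of named genes, 14 fell under 2-fold, 16 passed it and 0 of those past 2-fold changed sign. Members of day 7 against those of day 3 could not be compared, with 1 cell on day 3. No paired analysis was possible because the result comes from no test, with 1 library per group.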
